A study of Mus musculus with 4 samples.

Results

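The genes described here are 47 genes of DNA replication and S phase, chosen by name from a fixed list among the 27998 genes counted. All 47 were found in the count tables. The cells were LMPPs (lymphoid-primed multipotent progenitors), which can still form lymphoid and myeloid blood cells and had been sorted from the bone marrow of C57BL/6 mice and captured for droplet single-cell RNA sequencing. The 4 groups had 1 library each. Control mice had RBPJ throughout, and RBPJ uninduced mice were described as lacking it. In the other mice, also described as lacking it at first, doxycycline had induced RBPJ for 3 days or for 6 days. RBPJ is the DNA-binding protein that carries the Notch signal to its target genes. Doxycycline was given as an injection at 2 mg/ml and then in drinking water at 1 mg/ml, and the labels carry this text for every library, so whether control and uninduced mice received it is not clear. The labels give neither the number of mice per library, their age, nor the promoter that drives the inducible RBPJ or its deletion.

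The cells were those of the authors' expression tables, 2693 control, 2769 uninduced, 1292 3-day and 2129 6-day cells. They held 10647894 to 23504158 unique molecular identifiers (UMIs, 1 per captured transcript) per library, at a median of 6774 to 7920 per cell. Library pairs shared 2 to 17 cell barcodes. Rbpj stood at 17.8, 11.2, 508 and 485 CPM (a gene's UMIs scaled to the same total in every library) in control, uninduced, 3-day and 6-day cells, an order that matched the labels. Uninduced cells still held the transcript, at 0.631 (0.535 to 0.742) of control. The 6-day level was 27.3-fold (24.7 to 30.1) that of control, so induction went far above the control level. These are transcript levels, and RBPJ protein was not measured here. All 8 LMPP markers were detected in every library, among them Flt3 at 191 to 223 CPM and Cd34 at 411 to 484 CPM. Cells with markers of mature or other lineages made up 0.446% of control, 1.44% of uninduced, 2.01% of 3-day and 2.40% of 6-day cells. With 1 library per group there is no replicate check and no test was made. What comes from a group and what from its library cannot be told apart. Bracketed ranges are 95% intervals of counting error alone. The 4 comparisons share libraries and are not independent of one another.

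DNA is copied once per cell cycle, in S phase. Before S phase, origins of replication are licensed by loading the MCM helicase, and at its start the helicase is fired and joined by polymerases, a sliding clamp and its loader. Transcription factors of the E2F family switch on many of these genes as cells leave G1, and cyclin E, the uracil glycosylase gene Ung and E2f1 itself are known as early genes of that wave, while genes of nucleotide supply stay high later. LMPPs are a cycling population in mouse bone marrow, so a level summed over cells depends both on how many cells are in S phase and on how much each holds.

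The comparison of S-called cells with and without mitotic transcripts is described further on. There Mcm6 was lower, Pola1, Rrm1 and Tyms were higher, and Mcm5 was nearer to even. The interval of Pola1 holds 1 in 3-day and 6-day cells. E2F acts through stretches upstream of the gene start, so those stretches are shown first for these 5 members. The 5 were picked after their values were seen, and other members lay farther from even there than Mcm5 or Pola1. Each is the 250 bases before the start in RefSeq (GRCm38.p6), written 5′ to 3′ on the gene's own strand, and capitals mark matches to 4 words of the E2F type, TTTCCCGC, TTTGGCGC, TTTCGCGC and TTTGCCGC, searched on both strands. The regions are chr8:75109259-75109508, plus strand for Mcm5, chr1:128359706-128359955, minus strand for Mcm6, chrX:93632156-93632405, minus strand for Pola1, chr7:102441445-102441694, plus strand for Rrm1 and chr5:30073626-30073875, minus strand for Tyms.
Mcm5: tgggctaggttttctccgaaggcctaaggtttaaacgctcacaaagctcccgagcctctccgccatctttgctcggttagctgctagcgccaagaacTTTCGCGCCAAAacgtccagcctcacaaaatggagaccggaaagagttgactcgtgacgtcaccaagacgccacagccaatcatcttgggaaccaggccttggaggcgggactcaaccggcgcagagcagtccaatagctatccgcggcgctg
Mcm6: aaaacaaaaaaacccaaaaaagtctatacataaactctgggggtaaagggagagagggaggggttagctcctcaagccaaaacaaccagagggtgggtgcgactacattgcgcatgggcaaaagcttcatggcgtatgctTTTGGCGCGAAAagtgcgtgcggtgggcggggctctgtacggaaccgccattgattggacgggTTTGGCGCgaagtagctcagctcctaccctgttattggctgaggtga
Pola1: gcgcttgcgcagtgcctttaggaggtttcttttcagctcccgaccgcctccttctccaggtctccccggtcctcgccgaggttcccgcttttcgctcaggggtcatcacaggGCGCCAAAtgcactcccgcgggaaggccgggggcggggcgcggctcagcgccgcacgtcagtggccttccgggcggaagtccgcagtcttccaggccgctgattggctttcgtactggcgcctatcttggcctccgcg
Rrm1: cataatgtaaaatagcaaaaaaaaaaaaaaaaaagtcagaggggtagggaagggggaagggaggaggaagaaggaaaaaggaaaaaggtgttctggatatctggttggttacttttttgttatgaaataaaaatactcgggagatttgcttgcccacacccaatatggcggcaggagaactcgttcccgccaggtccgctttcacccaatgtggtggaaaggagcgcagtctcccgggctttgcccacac
Tyms: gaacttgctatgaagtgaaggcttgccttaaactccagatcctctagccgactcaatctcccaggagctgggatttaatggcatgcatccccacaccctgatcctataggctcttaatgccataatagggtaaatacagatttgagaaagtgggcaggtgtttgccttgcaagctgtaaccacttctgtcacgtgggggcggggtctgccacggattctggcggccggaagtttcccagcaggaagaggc
In Mcm5 the run of capitals, and in Mcm6 the first run, is a pair of matches on opposite strands that overlap. The runs begin 153 bases before the start in Mcm5, 110 and 47 bases before it in Mcm6 and 138 bases before it in Pola1, and the regions of Rrm1 and Tyms hold none of the 4 words. Mcm2 and Mcm3, which were lower than Mcm5 in the comparison of S-called cells, hold none either. Fen1 and Mybl2, which were higher in that comparison in 4 of 4 libraries, also hold none. The interval of Mybl2 holds 1 in 3-day cells. Mcm7, which was higher there in 4 of 4 libraries, holds one in a region wholly inside the annotated gene and none in another. The interval of Mcm7 in that comparison holds 1 in uninduced and 3-day cells. The counts of Mcm7 are uncertain, as described below. Whether matches go with that comparison was not tested. Of the 47 members 36 have an entry in the table of start regions, and 8 of the 36 (22.2%) hold at least 1 match: Mcm5, Mcm6, Mcm7, Cdc6, Pola1, Rfc3, Uhrf1 and Hells. Counted by region, 8 of 41 member regions (19.5%) and 611 of all 32851 start regions in the table (1.86%) hold one. Of the member regions 16 lie outside the gene as GENCODE vM21 draws it, with a match in 3, and the entry for E2f1 lies wholly inside it. All 3 of these are among the 5 regions shown, so the regions shown do not represent the 16. A match is a description of the letters in this window only.

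The summed level of the 47 members was between 0.298% and 0.330% of all UMIs in each library and differed little between them. Control cells held 3298 CPM and uninduced cells 3158 CPM, against 3251 CPM at 3 days and 2982 CPM at 6 days. The 6-day library was lowest and the control library highest. The ratio was 0.958 (0.948 to 0.968) for uninduced against control, 1.03 (1.02 to 1.04) for 3-day against uninduced, 0.944 (0.933 to 0.955) for 6-day against uninduced and 0.904 (0.894 to 0.914) for 6-day against control. All genes at 10 CPM or more had median log2 ratios of -0.07, -0.01, -0.03 and -0.10 in the same comparisons, and the members had medians of -0.06, 0.03, -0.06 and -0.17. With TMM scaling, which sets the bulk of genes level between libraries, the uninduced to control ratio turned to 1.00, just above 1, and the 6-day to control ratio was 0.959, while the directions against uninduced cells held.

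Few members passed a 1.2-fold difference, and the shares were near or below those of all genes. Counts used the 46 members that reached 10 CPM in at least 1 of the compared libraries, and the gene left out in every comparison was Ccne1 (cyclin E1), at 6.76 to 8.72 CPM. In uninduced against control cells 0 members were 1.2-fold higher, beside 2.92% of all genes, and 3 were lower (Pola2, Pold1 and Ccne2), beside 10.1% of all genes. At 3 days against uninduced 3 were higher (Mcm2, Cdc45 and Rrm1), beside 5.97%, and 0 lower, beside 8.12%. At 6 days against uninduced 0 were higher, beside 3.83%, and 3 lower (Tk1, Rpa2 and Ung), beside 4.47%. At 6 days against control 0 were higher, beside 1.91%, and 5 lower (Mcm2, Pola2, Pold1, Tk1 and Chaf1b), beside 10.4%. With TMM scaling Pola2 alone remained 1.2-fold lower in each of the comparisons with control, and the split of members above and below 1 went from 14 and 33 to 25 and 22 for uninduced and from 3 and 44 to 11 and 36 for 6-day cells. By library totals 21 of the 47 members had their highest level in control and 20 in 3-day cells, and 28 had their lowest in 6-day cells. On that scale the median of all genes was also below control, with log2 ratios of -0.07 in uninduced and -0.10 in 6-day cells. The share over all genes is not given for these counts.

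**Figure D1:**
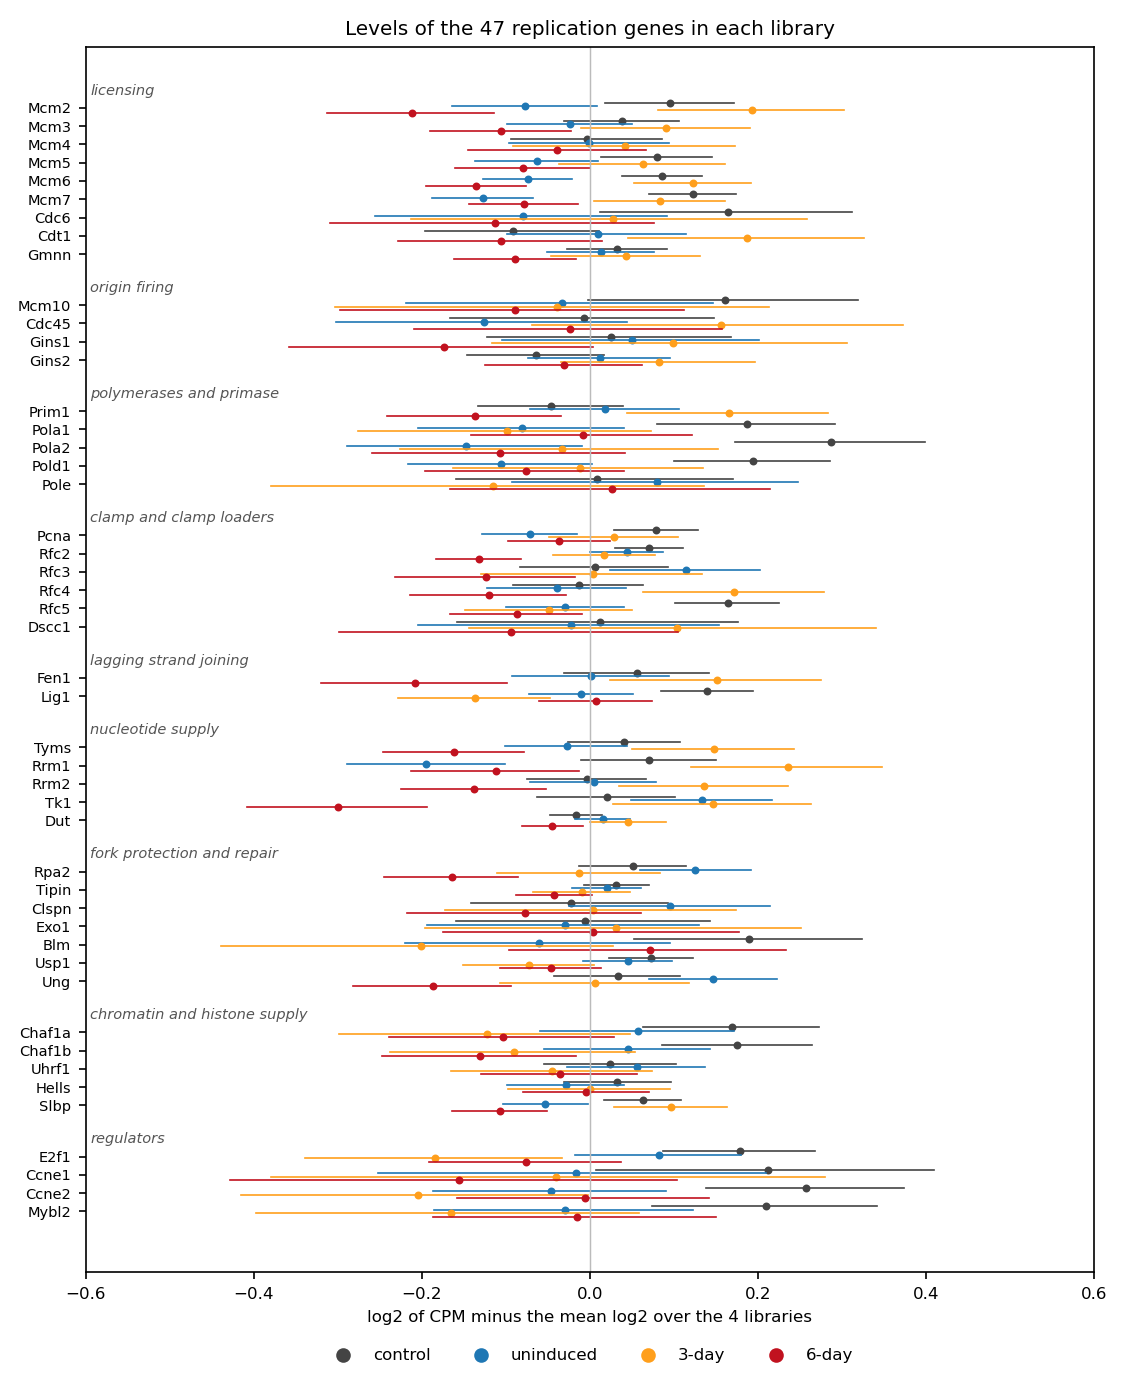
Level of each member in the 4 libraries, as log2 of CPM minus the gene's mean over the libraries (horizontal axis), grouped by role, with lines for the 95% counting interval. Control (grey) or 3-day points (orange) lie farthest right for 21 and 20 of the 47 genes, 6-day points (red) for 0. Most intervals overlap. Levels use library totals, and no share over all genes is given beside these counts.

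Licensing genes, which load and guard the MCM helicase at origins, were the role with the highest ratio at 3 days. The 9 genes (Mcm2 to Mcm7, Cdc6, Cdt1 and Gmnn) summed to 679, 624, 693 and 602 CPM in control, uninduced, 3-day and 6-day cells, with ratios of 0.919 (0.898 to 0.941) for uninduced against control and 1.11 (1.08 to 1.14) for 3-day against uninduced. Mcm2, an MCM helicase subunit (ENSMUSG00000002870; GRCm38 chromosome 6, 88883474 to 88898780, minus strand), stood at 58.4, 51.8, 62.5 and 47.1 CPM in that order of libraries, 1.21-fold (1.09 to 1.33) higher at 3 days than in uninduced cells. Mcm6, another subunit and the gene of the role with the most UMIs, stood at 153, 137, 157 and 131 CPM, 1.15-fold (1.08 to 1.22) higher at 3 days than in uninduced cells. In both genes the control and 3-day libraries were the high ones and the 6-day library the lowest. The other 7 genes had 3-day to uninduced ratios from 1.02 in Gmnn, the licensing inhibitor geminin, to 1.16 in Mcm7. The counts of Mcm7 are uncertain, because 41.6% of its transcript end is shared with 1 other annotated gene and Cops6 lies there on the opposite strand, and strand use in the counting was not given in the sources used here.

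Origin firing genes, which turn the loaded helicase on, showed no role-level ratio whose interval left 1. The 4 genes summed to 96.0, 96.3, 102 and 92.8 CPM. Cdc45, a partner of the active helicase (ENSMUSG00000000028; chromosome 16, 18780447 to 18811987, minus strand), stood at 14.3, 13.1, 16.0 and 14.1 CPM, with a 3-day to uninduced ratio of 1.22 (0.999 to 1.48), an interval that reaches 1. Gins2, a subunit of the GINS complex of that helicase, stood at 51.8, 54.6, 57.3 and 53.0 CPM.

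Among the polymerases and primase, genes of DNA synthesis itself, Pola2 and Pold1 were lower in uninduced and 6-day than in control cells. Pola2, the regulatory subunit of DNA polymerase alpha (ENSMUSG00000024833; chromosome 19, 5940542 to 5964202, minus strand), stood at 27.1, 20.05, 21.7 and 20.6 CPM in control, uninduced, 3-day and 6-day cells. The control library alone was high, and the ratio to it was 0.740 (0.652 to 0.838) in uninduced and 0.761 (0.667 to 0.867) in 6-day cells. Pold1, the catalytic subunit of polymerase delta (ENSMUSG00000038644; chromosome 7, 44532746 to 44548849, minus strand), had the same order of control over the rest, at 40.1, 32.5, 34.7 and 33.2 CPM. Its ratio of uninduced to control was 0.812 (0.735 to 0.897). Pole, the catalytic subunit of polymerase epsilon, ran from 11.8 CPM at 3 days to 13.6 CPM in uninduced cells, and Prim1, the primase, from 43.7 CPM at 6 days to 53.9 CPM at 3 days.

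The sliding clamp and its loaders were lowest in 6-day cells, at 552, 525, 536 and 490 CPM summed over 6 genes, a 6-day to uninduced ratio of 0.933 (0.907 to 0.960). Rfc2, a clamp loader subunit and the gene with the most UMIs here, stood at 212, 208, 204 and 184 CPM. The 6-day library stood below the other 3, at 0.885 (0.845 to 0.926) of uninduced cells. Rfc3, a further loader subunit, stood at 44.7, 48.2, 44.6 and 40.8 CPM. The counts of Pcna, the clamp itself, at 122 to 135 CPM, are uncertain because 24.6% of its transcript end is shared with copies such as Pcna-ps2. Of the genes that join lagging strand fragments, Lig1 (DNA ligase 1) stood at 112, 101, 92.6 and 102 CPM and Fen1 (the flap nuclease) at 45.9, 44.2, 49.0 and 38.2 CPM, so they were ordered differently across libraries.

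Nucleotide supply genes held the member with the highest single ratio and one of the lowest. Rrm1, the large subunit of ribonucleotide reductase, which makes deoxynucleotides (ENSMUSG00000030978; chromosome 7, 102441695 to 102469771, plus strand), stood at 53.1, 44.2, 59.5 and 46.8 CPM in the 4 libraries. It was 1.35-fold (1.22 to 1.49) higher at 3 days than in uninduced cells. Its partner subunit Rrm2 stood at 68.5, 68.9, 75.4 and 62.4 CPM. Tk1, a thymidine salvage kinase (ENSMUSG00000025574; chromosome 11, 117815526 to 117826092, minus strand), stood at 50.9, 55.1, 55.6 and 40.8 CPM. The 6-day library alone was low, at 0.741 (0.674 to 0.814) of uninduced and 0.801 (0.729 to 0.880) of control cells, and Gm20708 lies at the Tk1 end on the opposite strand. Dut, the dUTPase, was the most abundant of the 47 in UMIs (not per length), at 357, 365, 373 and 350 CPM.

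Fork protection and repair genes were below uninduced cells at both 3 and 6 days. The 7 genes summed to 576, 580, 548 and 530 CPM, at 0.944 (0.915 to 0.974) of uninduced cells at 3 days and 0.915 (0.890 to 0.940) at 6 days. Rpa2, a subunit of the single-strand binding protein RPA (ENSMUSG00000028884; chromosome 4, 132768332 to 132778752, plus strand), stood at 84.0, 88.5, 80.4 and 72.4 CPM, at 0.818 (0.761 to 0.879) of uninduced cells at 6 days. Tipin, a fork protection factor, stood at 232, 230, 225 and 220 CPM, and Usp1, a deubiquitinase of repair, at 139, 136, 125 and 128 CPM. Clspn, the checkpoint adaptor claspin, ran from 24.3 to 27.4 CPM and Exo1, an exonuclease, from 14.9 to 15.6 CPM. Blm, a repair helicase, stood at 18.8, 15.8, 14.4 and 17.4 CPM, with wide intervals. Among chromatin genes Chaf1a, a subunit of the histone chaperone CAF-1, stood at 31.6, 29.3, 25.8 and 26.2 CPM. Chaf1b, its partner subunit, stood at 43.4, 39.6, 36.1 and 35.1 CPM, at 0.809 (0.730 to 0.895) of control cells at 6 days. Slbp, which binds histone mRNA, stood at 162, 149.9, 166 and 144 CPM and had its libraries in the same order as Mcm2 and Mcm6.

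The regulators, E2f1, Ccne1, Ccne2 and Mybl2 (a transcription factor of cell cycle genes), were the role with the lowest ratio at 3 days. They summed to 95.8, 84.0, 73.6 and 80.0 CPM, at 0.876 (0.804 to 0.954) of uninduced cells at 3 days and 0.952 (0.886 to 1.02) at 6 days. Control was highest and the 3-day library lowest, the reverse of the licensing genes at 3 days. Mybl2 stood at 19.5, 16.5, 15.0 and 16.7 CPM, and 36.6% of its transcript end is shared with 1 other annotated gene.

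To set the share of cells in S phase apart from the level within such cells, every cell was thinned to 3000 UMIs and called by its UMIs from the 47 members. The score was a continuum with no gap (the plot of UMIs per cell), so an S-called cell is a range of the score and not a type, and it is not a measure of DNA synthesis. The threshold, 6 UMIs, came from the Otsu rule over all libraries weighted equally, and 11.2% to 12.4% of cells held 5 or 6 UMIs. Cells under 3000 UMIs were left out, 20 of control, 66 of uninduced, 27 of 3-day and 43 of 6-day cells. Called cells held more UMIs in all before thinning, with medians of 8665 to 9646 against 4999.5 to 5681 in the others.

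**Figure D2:**
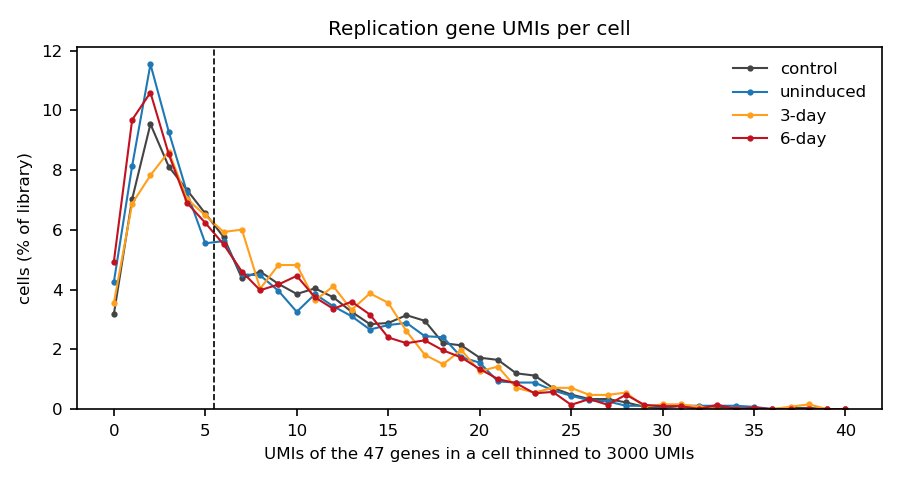
Cells of each library (vertical axis, % of library) by the UMIs of the 47 genes left after thinning each cell to 3000 UMIs (horizontal axis), with the threshold as a dashed line. All 4 libraries peak at 2 or 3 UMIs and fall away without a second peak, to medians of 6 or 7 UMIs.

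The S-called share was 58.2% (56.4 to 60.1) of control and 54.0% (52.1 to 55.9) of uninduced cells, 59.6% (56.8 to 62.3) at 3 days and 53.1% (50.9 to 55.3) at 6 days. Control and 3-day cells lay together, above uninduced and 6-day cells, and the intervals overlap within each of these pairs. The share ratio was 0.927 (0.862 to 0.996) for uninduced against control and 1.1 (1.01 to 1.21) for 3-day against uninduced, while 0.984 (0.909 to 1.06) for 6-day against uninduced holds 1. For 6-day against control it was 0.912 (0.844 to 0.986), the lowest of the 4. The intervals of these share ratios treat counts of cells as Poisson counts, so they are wider than binomial ones would be. Without thinning the shares were 55.5%, 50.5%, 57.0% and 50.0%. The order of uninduced and control cells turned over when cells were thinned to 4700 UMIs instead, at 62.7% (60.6 to 64.8) against 61.1% (59.0 to 63.0), a setting that left out 676 of 2769 uninduced and 351 of 2693 control cells. At that depth 3-day cells stood at 65.6% (62.7 to 68.4) and 6-day cells at 57.0% (54.7 to 59.4). A call by scores of these genes and of G2 and M phase genes, as in the Seurat package, gave 41.7%, 38.9%, 42.5% and 38.8%, at lower values. RNA outside cells held the members at 3597 to 4006 CPM, 1.19 to 1.21 times the level in cells, so free RNA carried these transcripts in every library, and its part in the shares was not tested.

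The level within S-called cells spanned 4114 to 4348 CPM. Each member was read only in cells called by the set that does not hold it, the list having been divided into sets of 24 and 23, so no gene chose its own cells. The summed level was 4348, 4329, 4236 and 4114 CPM in the called cells of control, uninduced, 3-day and 6-day libraries, and 1559, 1526, 1645 and 1505 CPM in the other cells. These levels pool UMIs over the called cells before scaling, so cells with more UMIs weigh more, and the total RNA of a cell does not enter. Uninduced against control the level in called cells was 0.996 (0.984 to 1.01), so the interval holds 1 where the share ratio did not. At 3 days it was 0.978 (0.964 to 0.993) of uninduced cells, below 1, while the share ratio lay above 1. At 6 days it was 0.95 (0.938 to 0.963) of uninduced and 0.946 (0.935 to 0.958) of control cells. Those values use library totals: with the whole libraries' TMM factors the 6-day to control value turned to 1.004 and the uninduced to control value was 1.04, while 3-day and 6-day against uninduced kept their direction at 0.985 and 0.961. With the split of UMIs between called and other cells held at that of the reference library, the summed ratio went from 0.961 to 0.993 for uninduced against control, from 1.03 to 0.998 for 3-day against uninduced, from 0.944 to 0.957 for 6-day against uninduced and from 0.906 to 0.95 for 6-day against control.

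**Figure D3:**
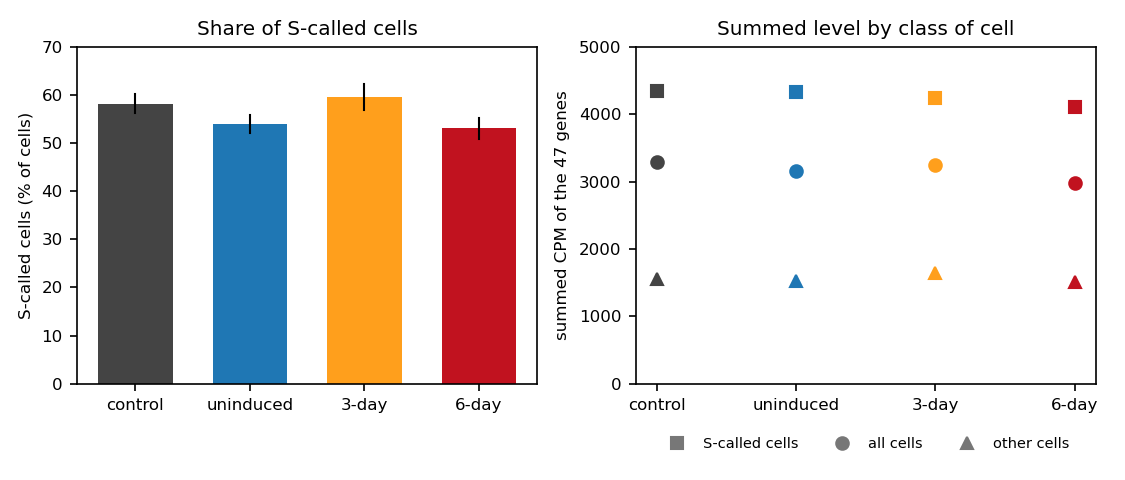
Left, S-called cells as a share of each library (vertical axis, %), with 95% counting intervals as lines. Right, summed CPM of the 47 genes in S-called cells (squares), all cells (circles) and other cells (triangles), where squares run from 4114 to 4348 CPM and control and 3-day shares stand above the other 2.

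Within S-called cells the members past 1.2-fold were few again, out of all 47, which each reached 10 CPM there. Uninduced against control 0 were higher (2.95% of all genes) and 2 lower (12.6%), Pola2 at 0.790 (0.685 to 0.910) and Blm at 0.816 (0.692 to 0.960). At 3 days against uninduced 1 was higher (7.69%), Rrm1 at 1.29 (1.15 to 1.44), and 1 lower (8.73%), E2f1 at 0.774 (0.677 to 0.883). At 6 days against uninduced 0 were higher (5.5%) and 4 lower (5.7%), Fen1, Tk1, Rpa2 and Ung, with Tk1 at 0.766 (0.695 to 0.845) and Ung at 0.80 (0.731 to 0.875). At 6 days against control 0 were higher (2.29%) and 1 lower (11.8%), Pola2 at 0.763 (0.653 to 0.889). Pola2, Rrm1, Tk1, Rpa2 and Ung passed 1.2-fold in the same direction over all cells and in S-called cells, in at least 1 comparison. Called cells are part of all cells and held 57.5% to 62.8% of the UMIs. The reading in S-called cells is therefore not independent of the reading over all cells.

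All 47 members were higher in S-called than in other cells in each of the 4 libraries, with a median ratio of 2.92 to 3.00. As both sets were listed together as S phase genes, that direction is a check of the call and no finding. The size varied among members. Ccne2 (cyclin E2, the partner of CDK2 at S phase entry) had the highest mean ratio, at 12.5, 9.95, 7.53 and 12.1 in the 4 libraries, followed by Ccne1 and Tk1. Usp1, Rfc2 and Rfc3 had the lowest, with Usp1 at 1.83, 1.94, 1.60 and 1.73. Members of 1 role could differ widely, as Tk1 (6.12 to 9.59) and Dut (2.17 to 2.47) did among the nucleotide supply genes.

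The early members were Ung, E2f1 and Ccne2, set against the other 44. Ung, the uracil glycosylase that clears uracil from new DNA (ENSMUSG00000029591; chromosome 5, 114130386 to 114139323, plus strand), stood at 61.6, 66.7, 60.5 and 52.9 CPM in the 4 libraries. Its uninduced level was highest and its 6-day level lowest, at 0.793 (0.729 to 0.862) of uninduced cells. E2f1, an activating transcription factor of the E2F family (ENSMUSG00000027490; chromosome 2, 154559407 to 154569892, minus strand), stood at 42.5, 39.8, 33.1 and 35.6 CPM. Both induced libraries lay below the other 2, at 0.832 (0.732 to 0.943) of uninduced cells at 3 days and 0.896 (0.807 to 0.996) at 6 days. Ccne2 (ENSMUSG00000028212; chromosome 4, 11191351 to 11204779, plus strand) stood at 25.1, 20.3, 18.2 and 20.9 CPM. Control was high for Ccne2, with 0.810 (0.713 to 0.919) in uninduced cells, and the 3-day to uninduced ratio of 0.896 (0.752 to 1.06) was within counting error. Ints8 lies at the Ccne2 end on the opposite strand, so its counts are uncertain. The same holds for Rfc2 (Lat2), Gins2 (Gse1 and Gm20388) and Chaf1a (Ubxn6), and shared transcript ends make the counts of Rrm2 (16.8%), Usp1 (15.8%), Pola1 (12.4%) and Tyms (11.5%) uncertain too.

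Per 1000 UMIs of the later members there were 40.8 (39.3 to 42.3) early UMIs in control cells and 41.8 (40.2 to 43.4) in uninduced cells, 35.6 (33.6 to 37.7) at 3 days and 38.1 (36.4 to 39.8) at 6 days. Control and uninduced cells overlapped, and 3-day cells lay below both. The ratio of these values was 1.03 (0.972 to 1.08) for uninduced against control, 0.851 (0.793 to 0.913) for 3-day against uninduced, 0.911 (0.857 to 0.968) for 6-day against uninduced and 0.934 (0.881 to 0.991) for 6-day against control. At 3 days the early sum was 0.882 (0.823 to 0.944) of uninduced cells while the later sum was 1.04 (1.02 to 1.05). The value depended on which genes were counted as early: with Ccne1, Cdc6 and Slbp added, the 3-day to uninduced ratio was 0.977 and the 6-day to uninduced ratio 0.971. Slbp alone holds more UMIs than the 3 early members together, and its 3-day to uninduced ratio was 1.11 (1.05 to 1.18). For the other added genes that ratio was 1.08 (0.877 to 1.32) in Cdc6 and 0.984 (0.740 to 1.30) in Ccne1.

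Cells with many and with few replication UMIs were then read apart. In cells called by the 24-member set, which holds no early member, the early value was 43.9, 45.0, 37.6 and 41.2 per 1000 later UMIs, and in the cells not called 23.0, 24.7, 24.6 and 23.0, with overlapping intervals. In cells with 12 or more UMIs of that set, E2f1 stood at 85.2, 99.6, 75.7 and 81.8 CPM and Ccne2 at 78.9, 70.9, 51.9 and 76.1 CPM. The 3-day library was lowest for both genes there, in 111 cells. In those cells Ung stood at 117, 134, 121 and 109.6 CPM, with 6-day cells lowest. This order did not hold in every group of cells. In cells with 5 to 7 UMIs of that set E2f1 was again lowest at 3 days, at 36.4 CPM. Ccne2 was highest at 3 days there, at 22.3 CPM against 19.1 in control, 17.6 in uninduced and 18.8 in 6-day cells. No intervals were made for single genes in these groups.

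**Figure D4:**
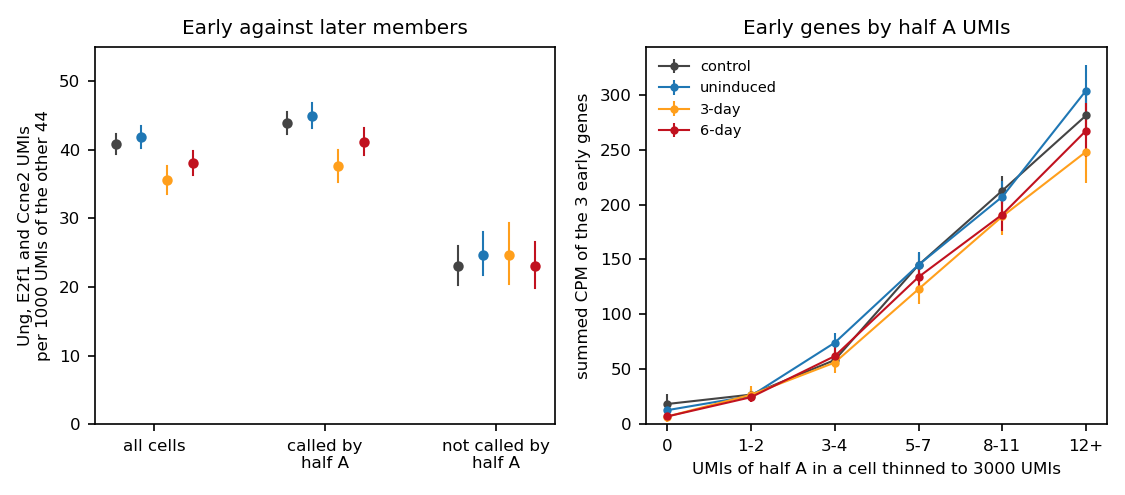
Left, UMIs of Ung, E2f1 and Ccne2 per 1000 UMIs of the other 44 genes (vertical axis) in all cells and in cells called or not called by the 24-member set, which holds no early gene. Right, summed CPM of the 3 early genes (vertical axis) by UMIs of that set per cell (horizontal axis), with 95% counting intervals as lines. The 3-day value is 35.6 against 41.8 in uninduced over all cells, and the libraries overlap in cells not called.

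The members also differed by whether an S-called cell held transcripts of G2 and M phase, from a separate list of 50 mitotic genes and a threshold of 5 UMIs. S-called cells with that call were 26.4%, 23.2%, 25.3% and 23.5% of the 4 libraries, and S-called cells without it 31.8%, 30.8%, 34.3% and 29.6%. In each of the 4 libraries 27 of the 47 members were higher in S-called cells with the G2M call than in those without, 11 were lower, and 9 differed in direction between libraries. These counts go by direction alone, and the share over all genes is not given for them. Intervals that hold 1 occur on both sides. Among the higher members Pole was at 1.02 (0.688 to 1.53) at 3 days and Ccne1 at 1.003 (0.674 to 1.497) at 6 days. Among the lower ones Cdt1 was at 0.902 (0.770 to 1.06) in control cells. The 11 lower ones were Ung, E2f1, 5 of the 6 MCM subunit genes (Mcm2 to Mcm6), Hells, Cdt1, Gins2 and Chaf1b. Ung was at 0.248, 0.307, 0.269 and 0.320 of its level in S-called cells without the G2M call, the lowest of all, and E2f1 at 0.646, 0.713, 0.625 and 0.631. Mcm2 followed at 0.685 to 0.841. Of the 5 nucleotide supply genes 4 stood at the other end, with Rrm2 at 2.49, 2.66, 2.43 and 2.83, Tk1 at 2.25 to 3.22, Rrm1 at 1.83 to 2.76 and Tyms, the thymidylate synthase, at 1.82 to 2.13, while Dut lay at 1.08 to 1.2. Every one of these ratios lay on its side of 1 in 4 of 4 libraries. Mcm5, the nearest to 1 of the 11 lower members, was at 0.95, 0.974, 0.874 and 0.924, and its interval holds 1 in each library. Ccne2, early by the rule, did not stand with Ung and E2f1, at 1.15, 1.19, 0.902 and 1.18. Cells with both calls may also be pairs of cells in 1 droplet, as doublets were not removed, and their part was not tested.

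**Figure D5:**
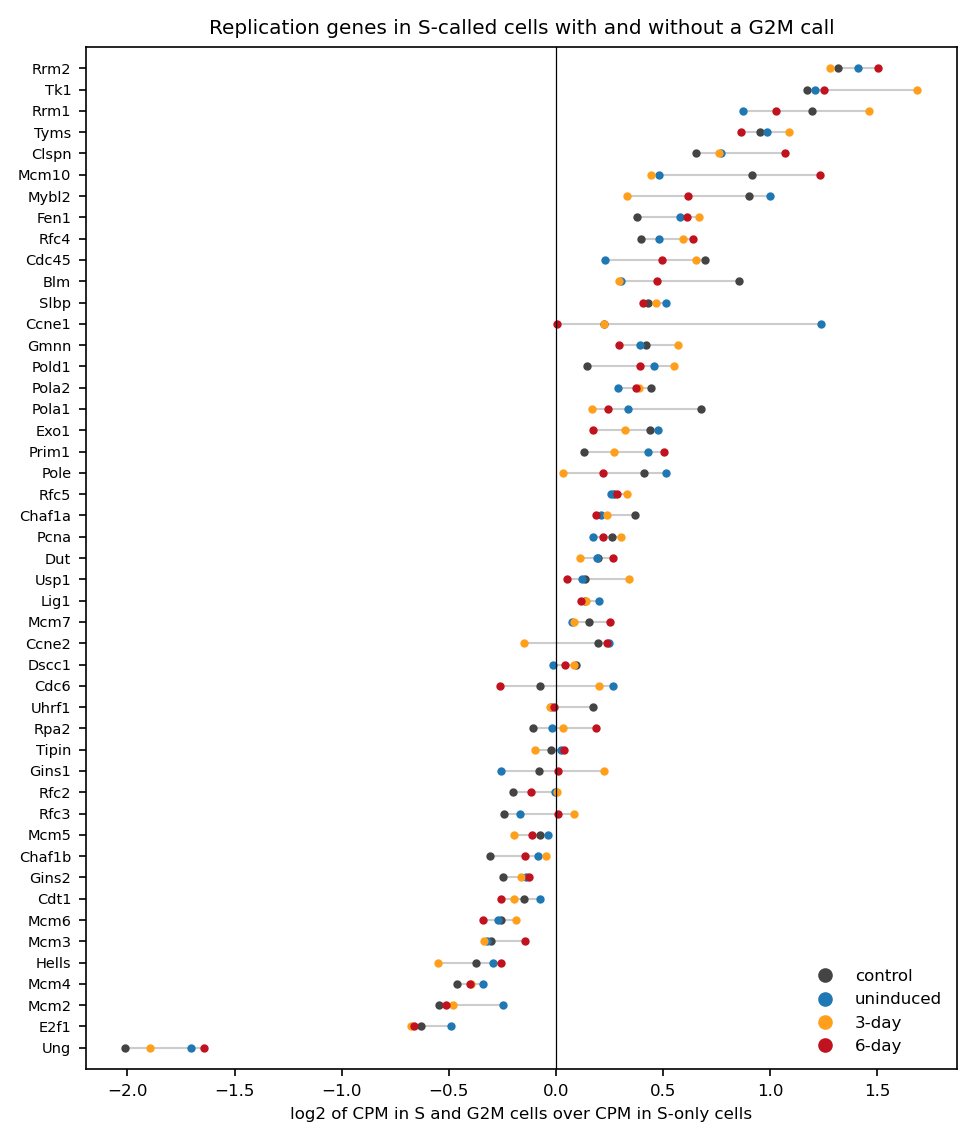
For each member (rows), log2 of its CPM in S-called cells with a G2M call over its CPM in S-called cells without one (horizontal axis), with 1 point per library. Ung and E2f1 lie farthest left and Rrm2, Tk1 and Rrm1 farthest right, with all 4 libraries on the same side.

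Other replication genes, a list of 59 more genes of the process, were counted in the same way among the 46 or 47 that reached 10 CPM. In uninduced against control cells 1 was 1.2-fold higher (2.92% of all genes) and 8 of 46 lower (10.1%), where the 47 members had 3 lower. At 3 days against uninduced 3 of 47 were higher (5.97%) and 0 lower (8.12%). At 6 days 0 of 46 were higher (3.83%) and 1 lower (4.47%) against uninduced, and 0 higher (1.91%) and 6 lower (10.4%) against control. Cdc7, the kinase that fires origins, stood at 25.7, 17.2, 21.5 and 18.8 CPM, 0.670-fold (0.587 to 0.765) in uninduced against control cells. Cdk2, the S phase kinase, stood at 35.7, 24.1, 25.6 and 28.2 CPM, 0.675-fold (0.603 to 0.754) in the same comparison. Control was the high library for both. Nasp, a histone chaperone, stood at 63.0, 65.1, 81.8 and 61.3 CPM, 1.26-fold (1.15 to 1.37) at 3 days against uninduced. Asf1b, another histone chaperone, was lowest at 6 days (20.7 CPM against 27.9 in control), and Wee1, a kinase that restrains CDK activity, was highest in uninduced cells (15.2 CPM against 12.2 in control). Of the 50 mitotic genes 48 reached 10 CPM. Of these, 0 were higher and 20 lower in uninduced against control cells, beside 2.92% and 10.1% of all genes, and 13 higher and 0 lower at 3 days against uninduced, beside 5.97% and 8.12%. At 6 days 2 were higher and 0 lower against uninduced, beside 3.83% and 4.47%, and 0 higher and 5 lower against control, beside 1.91% and 10.4%.

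Marker lists of other cells moved between libraries beside these values. Neutrophil and monocyte genes (15 of 15 detected in each library) summed to 1097, 3706, 4475 and 3161 CPM in the 4 libraries. Erythroid genes summed to 294 to 868 CPM, and of the T and NK cell genes Cd3e was at 0 in all 4 libraries. Without the 12, 40, 26 and 51 cells that carried markers of other types, neutrophil and monocyte genes summed to 145, 209, 201 and 199 CPM. Erythroid genes then summed to 235 to 302 CPM. Those cells were picked by such markers, so a lower sum without them is no finding. The summed levels, shares and early values of the members stayed within their counting intervals without those cells. Stem cell markers summed to 151, 144, 107 and 116 CPM. Cells with at least 2 UMIs of those markers after thinning had lower S-called shares, at 42.6%, 38.9%, 45.7% and 36.8%, than the remaining cells, at 60.4%, 55.8%, 60.7% and 54.6%. That direction held in 4 of 4 libraries. With the makeup by those markers held at that of the reference library, the S-called share was 53.8% instead of 54.0% in uninduced cells set against control and 59.1% instead of 59.6% in 3-day cells set against uninduced.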

How the data were processed

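Droplet single-cell libraries of sorted LMPPs, 1 for each of 4 groups, were read from the deposited matrices, which hold whole UMI counts that the authors made for 27998 genes. Per the submitters' processing notes, Seurat and the mm10 build are listed, with no version or role stated. How reads were aligned and counted is not given in the sources used here. Deposited tables of log2 values, which the authors scaled by a size factor per cell, gave back the matrix counts to within 1e-06 for the 400 genes checked in each library and served here only to define the cells.

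UMIs were summed per library and scaled to CPM. Log2 ratios used a pseudocount of 1 CPM, and counts of genes a minimum of 10 CPM and 1.2-fold. Levels carry exact Poisson intervals at 95%, shares exact binomial (Clopper-Pearson) ones and ratios conditional exact ones, all for counting error only. Ratios of shares used the same conditional form, which treats counts of cells as Poisson counts and is wider than a binomial interval. Cells were thinned to 3000 UMIs by random draws for calls. For levels in called cells the list was split into sets of 24 and 23 members with thresholds of 4 and 3 UMIs. Cells carried markers of another type when at least 3 markers of 1 list made up at least 0.5% of their UMIs. RNA outside cells came from barcodes of 10 to 100 UMIs. No doublet caller was run and doublets were kept. Shared transcript ends were 31-base words of the last 500 bases (GENCODE vM21, GRCm38). Tools were Python 3.11.15, numpy 2.4.6, scipy 1.17.1, scanpy 1.11.5 and edgeR 4.0.16, the last for TMM factors only. Simulated data were used to test the fold counts with their intervals, and the Otsu rule on a mixture of low and high Poisson scores. The real score has no second peak, so that mixture differs from it. Levels in called cells and the early to later ratio were not tested in this way.

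Members and lists were chosen with earlier results of these data known. The named members were the 3 early ones, the 3 highest and 3 lowest in each comparison, the one with the most UMIs in each role, the 3 highest and 3 lowest by the ratio of S-called to other cells, and of the other replication genes up to 2 each way past 1.2-fold. Chaf1b, Fen1, Gmnn, Mcm3, Mcm5, Mcm7, Mybl2, Pcna, Pola1, Rrm2 and Tyms were named outside that rule, after their values were seen. Cdc6, Cdt1, Hells and Uhrf1 were also named outside it, in lists of a role, of matches, of a class or of added early members. Alternatives were other scalings, pseudocounts, thresholds, depths, early sets and cell filters.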

Additional observations from a re-analysis of the deposited data

How the results depend on the processing

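Of 116 alternative values, 100 stayed within the counting interval of the value reported, 11 moved outside it and 5 reversed. All 5 reversals are of reported values whose interval left 1. Values whose interval holds 1 also crossed it and are not among the 5. For uninduced against control the level in S-called cells crossed from 0.996 to 1.04, 1.05 and, in cells called by all members, 1.001. The early to later ratio crossed from 1.03 to 0.981 with the added early members. For the median log2 ratio the counting interval is that of a single member and wide: all 24 stayed within it, although uninduced against control turned from -0.06 to 0.01 with TMM. For the summed level, uninduced against control reversed to 1.005 with TMM factors and 1.01 with size factors by median of ratios, and was 0.930 in cells thinned to 3000 UMIs. Thinning gave 1.07 for 3-day and 0.963 for 6-day against uninduced, and size factors 0.955 for the latter. The 6-day to control value was 0.959 with TMM and 0.967 with size factors. For the level in S-called cells, scaling chosen after seeing the data gave 1.04 (TMM) and 1.05 (size factors) for uninduced against control, and reversed 6-day against control to 1.004 and 1.01, while the other 20 values stayed within. For the S-called share, thinning to 4700 UMIs reversed uninduced against control to 1.03 and gave 0.909 for 6-day against uninduced. With Ccne1, Cdc6 and Slbp added to the early members, the early to later ratio was 0.977 for 3-day and 0.971 for 6-day against uninduced. The causes of these shifts were not tested. A threshold of 12 UMIs, chosen after seeing the data, gave S-called shares of 31.4%, 28.3%, 30.4% and 26.7% in control, uninduced, 3-day and 6-day cells. The 6-day to control ratio was 0.848 there, close to the lower end of the reported interval (0.844 to 0.986). Share ratios were judged by such intervals, which are wider than binomial ones. No paired analysis was possible because the 4 groups have a single library each. Depth limits single members at about 10 CPM, such as Ccne1 and Cdc45, whose intervals span 1 in most comparisons.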
